A study of Drosophila melanogaster with 3 samples.

Results

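Hr78-GFP peaks on chromosome 4, on the assembled heterochromatic (Het) sequences and on unplaced sequence are described here. They were taken by sequence name alone from the 1 peak list of the series, as all peaks on 4, XHet, 2LHet, 2RHet, 3LHet, 3RHet, U and Uextra. These 8 sequences held 238 of the 4851 peaks. Chromosome 4 carried 97 of them, the Het sequences 57 and the unplaced sequences 84, and the 4604 peaks on X, 2L, 2R, 3L and 3R, called the large arms, served as background. The remaining 9 peaks, on mitochondrial sequence, were not used.

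The peaks come from chromatin immunoprecipitation with sequencing (ChIP-seq) of whole wandering L3 larvae of the Drosophila melanogaster strain Hr78-GFP. Its larvae carry the genotype PBac{y[+]-attP-3B}VK00037 and a transgene of the Hr78 genomic coding region with a green fluorescent protein (GFP) tag, and their sex is unknown. The series has 2 ChIP libraries, made with the rabbit antibody ab290 against GFP, and 1 input DNA library from the same strain. Because the list was not split by library, replicate error is not known, no difference below was tested, and the depth behind each peak is unknown. Intervals are exact 95% intervals that treat peaks as independent and do not measure variation between animals. Peaks in close groups may not be independent, so the intervals may be too narrow. Whether 2 intervals overlap is given as a description and is not a test. In whole larvae, binding in few cells and weak binding in many cells cannot be told apart.

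Hr78 is an orphan member of the nuclear receptor family, DNA-binding transcription factors many of which respond to hormones, and is known in Drosophila for its need in the response to the moulting hormone ecdysone and in metamorphosis. Chromosome 4 is the smallest fly chromosome. Its genes are interspersed with repeats and packaged with heterochromatin protein HP1a, and many of them are nevertheless transcribed. The Het sequences are the parts of pericentric heterochromatin, rich in transposons and poor in genes, that could be assembled and assigned to an arm in genome release 5. The unplaced sequences U and Uextra are joined from scaffolds that were assigned to no chromosome, so neighbours on them need not be neighbours in the genome.

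The median scores of all 3 classes lay above that of the large arms, and the Het sequences had the highest. The authors' score was used to rank the peaks within the list, and a peak with a higher score is called stronger. The median score was 69.75 on the Het sequences (95% interval 35.88 to 84.73), 36.6 on unplaced sequence (30.03 to 53.44) and 22.6 on chromosome 4 (15.68 to 44.1), against 14.03 on the large arms (13.71 to 14.36). The intervals of the 3 classes overlapped in every pair, including Het and chromosome 4, and the order among the classes was not tested. None of the 3 intervals overlapped that of the large arms. A score of 33.59 or more, the score of the 1000th highest peak, was reached by 1008 peaks with ties, called strong peaks below. Strong peaks made up 19.1% of the peaks on the large arms, against 64.9% on the Het sequences (37 of 57, interval 51.1% to 77.1%), 54.8% on unplaced sequence (46 of 84, 43.5% to 65.7%) and 45.4% on chromosome 4 (44 of 97, 35.2% to 55.8%).

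**Figure D1:**
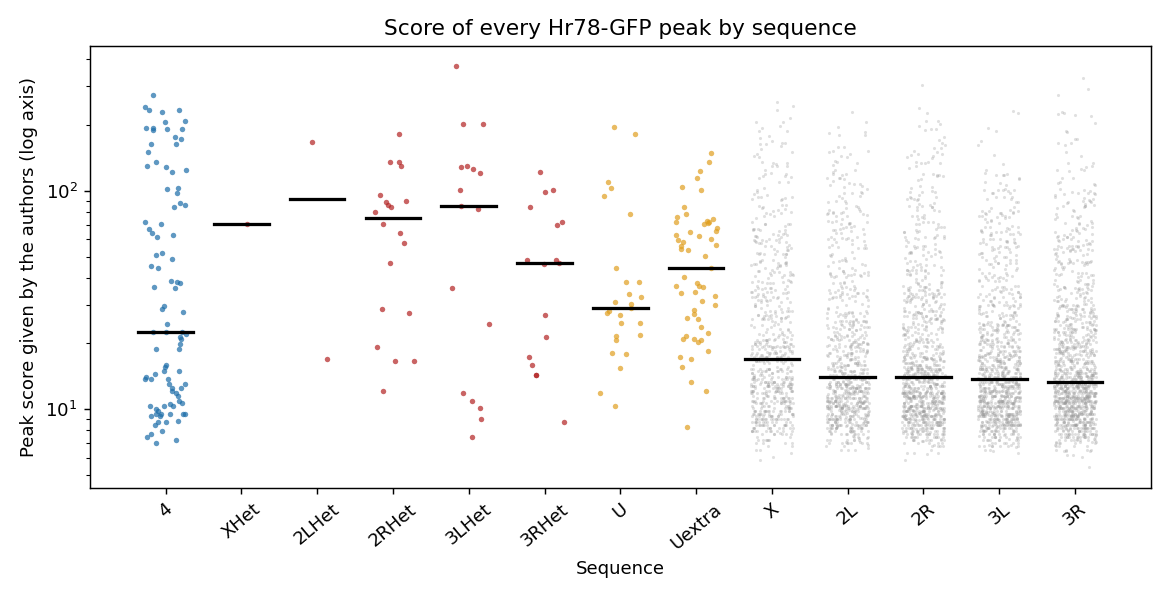
Score of every peak, on a log axis, for the 8 member sequences (coloured) and the large arms (grey); each point is 1 peak and each black line the median of the sequence. The medians of the member sequences run from 22.6 on chromosome 4 upward and all lie above the highest median of a large arm, 17.05 on X. The 95% intervals of chromosome 4 (15.68 to 44.1), 3LHet (11.86 to 128.04) and 3RHet (17.39 to 71.87) overlap that of X (15.35 to 18.11). The XHet and 2LHet lines rest on 1 and 2 peaks.

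The 3 classes reached these medians with different distributions. Chromosome 4 held weak and very strong peaks side by side. Of its 97 peaks, 36 (37.1%) scored under 15 and 24 (24.7%) scored 100 or more, with 12 between 50 and 100. On the large arms 53.3% scored under 15 and 3.91% scored 100 or more. Unplaced peaks were mostly intermediate, since 45 of 84 (53.6%) scored from 15 to under 50, 5 scored under 15 and 10 scored 100 or more. Het peaks were spread over the whole range, with 9 of 57 under 15, 17 from 15 to under 50, 16 from 50 to under 100 and 15 at 100 or more.

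The 10 highest chromosome 4 peaks, with ties broken by position, had scores of 190.65 to 274.35, at ranks 5 to 46 of the whole list. They were the peaks at 199440-201914 (score 274.35), 887410-888075 (240.87), 1081357-1082276 (233.98), 1346945-1348166 (233.97) and 1334039-1335165 (229.95). The next were at 64173-64954 (208.67), 229921-231353 (206.18), 679749-682144 (193.89), 87463-88475 (193.08) and 335018-336253 (190.65). The peak at 1047519-1049549 tied with the last of these, at 190.65. All positions refer to FlyBase release 5, which the header of the list names. The peak at 887410-888075 was only 666 bp wide, whereas the leading peak spanned 2475 bp, so strong sites on this chromosome were both narrow and broad. Its 3 lowest scores were 7, 7.24 and 7.48, in peaks of 220 to 252 bp.

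Among Het sequences the strongest peaks lay on 3LHet, 2RHet and 2LHet. On 3LHet the peak at 1396259-1397202 had the highest score of the whole list, 371.82, and it stood alone, with the nearest peaks to either side at 1285351-1285982 (35.88) and 1986903-1987407 (100.49). The peaks at 458330-459765 (202.6) and 601202-602846 (202.06) followed on the same sequence. On 2RHet the highest peak was at 471507-472484 (181.83). Those at 197919-198890 and 369907-370614 each scored 135.27, a value that peaks on other sequences also had. On 2LHet the 2 peaks differed widely, with a score of 166.88 for the 2489 bp peak at 32522-35010 and 17.05 for the 228 bp peak at 169004-169231. The single XHet peak, at 75158-76493, scored 70.34. On 3RHet the highest score was 122.36, at 1898833-1899738, and its median of 46.63 was below those of 2RHet (75.06) and 3LHet (84.73), though the intervals of these medians overlapped (17.39 to 71.87, 28.74 to 89.27 and 11.86 to 128.04).

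The 2 kinds of unplaced sequence differed from each other in these values. Uextra peaks had a median score of 44.41 (33.13 to 60.41), with 36 of 57 strong, and U peaks a median of 28.96 (21.83 to 38.21), with 10 of 27 strong; the intervals overlapped. The highest U peaks, at 6731824-6733026 (194.72) and 4022466-4023210 (181.99), nevertheless scored above every Uextra peak. On Uextra the highest were at 26549715-26550475 (149.32), 1986019-1986486 (135.27) and 8290293-8290889 (123.39).

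Chromosome 4 peaks were wider than those of the large arms over all peaks, but not at like scores, where unplaced peaks were the narrowest and Het peaks lay between. Over all peaks the median width was 546 bp on chromosome 4 (430 to 669), 508 bp on the Het sequences (456 to 658) and 414.5 bp on unplaced sequence (354 to 454), against 404 bp on the large arms (392 to 415). A width of 1000 bp or more was reached by 12.2% of the peaks on the large arms, by 24 of 97 on chromosome 4 (24.7%, 16.5% to 34.5%), by 8 of 57 on the Het sequences (14.0%, 6.26% to 25.8%) and by 2 of 84 on unplaced sequence (2.38%, 0.290% to 8.34%). Because higher scores went with wider peaks in every class, widths were also compared at like scores. Among peaks scoring from 50 to 150, the median width was 935 bp on chromosome 4 (n = 19, 631 to 1362) and 947 bp on the large arms (n = 501, 907 to 994). It was 659 bp on the Het sequences (n = 26, 508 to 906) and 474.5 bp on unplaced sequence (n = 32, 424 to 527). The unplaced interval lay far below that of the large arms and the Het interval just below it. Within the Het class the 7 such peaks on 3LHet had a median of 977 bp, and the 12 on 2RHet and 6 on 3RHet had medians of 649.5 and 597.5 bp.

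Scores were also compared at like widths. Among peaks of 300 to 600 bp, the median score was 48.17 on the Het sequences (n = 25, 24.58 to 79.98), 38.15 on unplaced sequence (n = 61, 33.13 to 56.5) and 18.82 on chromosome 4 (n = 29, 12.46 to 28.74), against 13.71 on the large arms (n = 1815, 13.4 to 14.03). The chromosome 4 interval, from 29 peaks, held the value of the large arms, and whether its scores differ at this width was not tested. The rank correlation of score with width across peaks was 0.85 on chromosome 4 (n = 97), 0.83 on the Het sequences (n = 57), 0.71 on unplaced sequence (n = 84) and 0.75 on the large arms (n = 4604). Both quantities come from the same pile-up of reads, and these correlations are a description only.

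**Figure D2:**
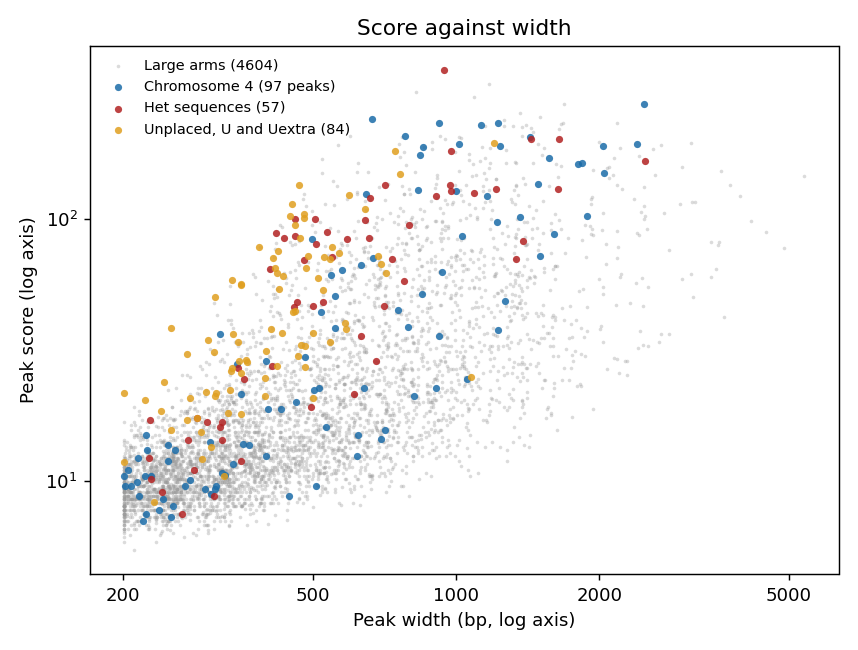
Score against width of every peak, both on log axes, with the 3 member classes coloured and the large arms in grey; each point is 1 peak. Unplaced peaks lie along the upper left edge of the cloud, at high scores for their width (median width 474.5 bp at scores of 50 to 150, against 947 bp on the large arms), while chromosome 4 peaks extend to widths of 2475 bp.

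By median distance, neighbouring peaks were closest on chromosome 4 and farthest apart on Uextra, and the distances on the Het sequences varied widely. Neighbouring peak centres lay a median of 4577 bp apart on chromosome 4 (96 pairs, 1710.5 to 10500), 27.3 kb on the Het sequences (52 pairs, 4.80 to 73.1 kb) and 277 kb on unplaced sequence (82 pairs, 144 to 429 kb), against 6146 bp on the large arms (4599 pairs, 5605.5 to 6644). The intervals of chromosome 4 and of the Het sequences held the median of the large arms, and that of unplaced sequence did not. The median was 324730 bp on Uextra and 113951 bp on U, distances that need not hold in the genome. Another peak within 1000 bp, measured between facing ends, was found for 45.4% of the peaks on the large arms, for 64 of 97 on chromosome 4 (66.0%, 55.7% to 75.3%), for 21 of 57 on the Het sequences (36.8%, 24.4% to 50.7%) and for 7 of 84 on unplaced sequence (8.33%, 3.42% to 16.4%). All 7 of these lay on U, in 1 group at 5289957-5299716, and none of the 57 Uextra peaks had such a neighbour (0%, 0% to 6.27%). The closest Uextra pair, at 2138441-2138856 and 2163344-2164029, was 24487 bp apart.

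The close spacing on chromosome 4 was one of pairs and triplets. Joining peaks at most 500 bp apart left 67 intervals from its 97 peaks, with 55 peaks (56.7%) in 25 groups of at most 3. Such groups held 35.5% of the peaks on the large arms, where the largest had 7 peaks. They held 31.6% of Het peaks and 5.95% of unplaced peaks. The 5 groups of 3 on chromosome 4 lay at 63586-65945, 149849-152986, 378672-380919, 679749-685249 and 1046469-1049862, and each held a peak that scored 100 or more. After joining, the median distance on chromosome 4 was 12914 bp and exceeded the 10833.5 bp of the large arms, so the order of the medians turned. Its intervals were still denser, at 49.7 per Mb against 30.9. Before joining, centre distances over 50 kb made up 7 of 96 neighbouring pairs on chromosome 4 (7.29%). On the large arms they made up 659 of 4599 (14.3%). The chromosome 4 share rests on few pairs, and no interval was computed for it. The longest empty stretch between chromosome 4 peaks was 96.9 kb, at 231354-328275. The longest centre distance was 98.0 kb on chromosome 4 and 630 kb on a large arm. These maxima come from 96 and 4599 pairs and cannot be compared directly.

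**Figure D3:**
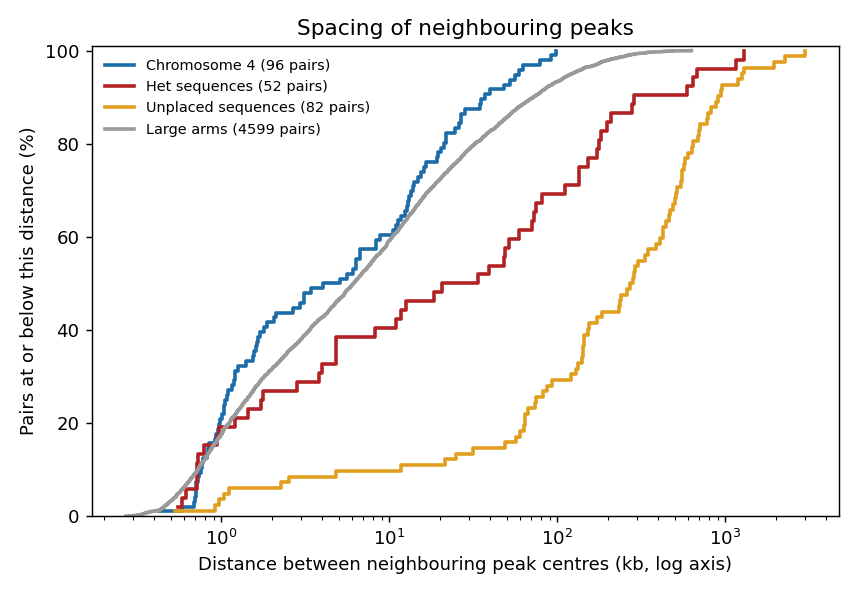
Cumulative percentage of neighbouring pairs (vertical axis) against the distance between peak centres in kb (log axis) for the 3 member classes and the large arms. The chromosome 4 line ends at 98.0 kb, while the Het and unplaced lines extend to 1288 kb and 2968 kb; the medians are 4.58, 27.3, 277 and, for the large arms, 6.15 kb.

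Weak peaks on chromosome 4 and on the Het sequences often lay beside a strong peak. On the large arms 9.29% of the peaks scoring under 33.59 lay within 1000 bp of a strong one, against 19 of 53 on chromosome 4 (35.8%, 23.1% to 50.2%), 9 of 20 on the Het sequences (45.0%, 23.1% to 68.5%) and 3 of 38 on unplaced sequence (7.89%, 1.66% to 21.4%). On chromosome 4 these 19 peaks had a median score of 11.86 and a median width of 270 bp, and the other 34 weak peaks had medians of 13.4 and 325 bp. An example is the triplet at 1046469-1049862, where a 2031 bp peak with a score of 190.65 was flanked by peaks scoring 15.68 and 7.98. Strong peaks were themselves denser on chromosome 4, and its weak peaks lay at a median of 2.36 kb from the nearest one, against 24.5 kb on the large arms. The strong peaks were also counted by whether they had a weak neighbour. A weak peak lay within 1000 bp of 18 of 44 strong peaks on chromosome 4 (40.9%, 26.3% to 56.8%), 8 of 37 on the Het sequences (21.6%, 9.83% to 38.2%) and 271 of 880 on the large arms (30.8%, 27.8% to 34.0%), with intervals that overlapped that of the large arms. On unplaced sequence this held for 3 of 46 strong peaks (6.52%, 1.37% to 17.9%), an interval below that of the large arms. These 3 strong peaks and the 3 weak peaks beside them all lay in 1 group on U, described below.

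Along chromosome 4, peaks were found throughout. Up to the end of its last peak the chromosome spanned 1.35 Mb, of which peaks covered 5.18%, against 2.19% of the large arms. Peak density was 71.9 per Mb against 38.9, a ratio of 1.85. The ratio was 4.39 for strong peaks and 1.25 for the others. None of its 14 windows of 100 kb was empty, whereas 263 of 1186 (22.2%) were on the large arms. The fullest windows were 1-100000 with 12 peaks, and 500001-600000 and 1000001-1100000 with 10 each. The 700001-800000 window held 2 peaks, neither of them strong. In 4 equal parts of this span the chromosome held 27, 27, 15 and 28 peaks, with 14, 8, 7 and 15 strong ones. The median scores of the first and last parts were 45.04 and 41.16, and those of the inner parts 18.82 and 29.6. No peak lay before 63586.

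Peaks on the Het sequences were unevenly placed, with long stretches that held none. With the span up to the last peak cut into 4 equal parts, 10 of 20 peaks on 2RHet lay in the last part and none in the third, with an empty stretch of 1151 kb at 1623686-2774911. On 3LHet, 9 of 17 lay in the last part, and 678 kb at 607174-1285350 were empty. On 3RHet, 14 of 17 lay in the last part, and the sequence was empty over 1287 kb from 55738 to 1342852, which is 66.5% of its span. Of the strong peaks, which are among those just counted, 8 of 14 lay in the last part on 2RHet, 5 of 11 on 3LHet and 7 of 10 on 3RHet. Since the span ends at the last peak, the last part holds a peak by construction. Any sequence beyond that peak was left out, so shares of the full length may differ. How much of these sequences reads could be aligned to was not known here, and the part of missing or repeated sequence in the empty stretches was not tested.

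**Figure D4:**
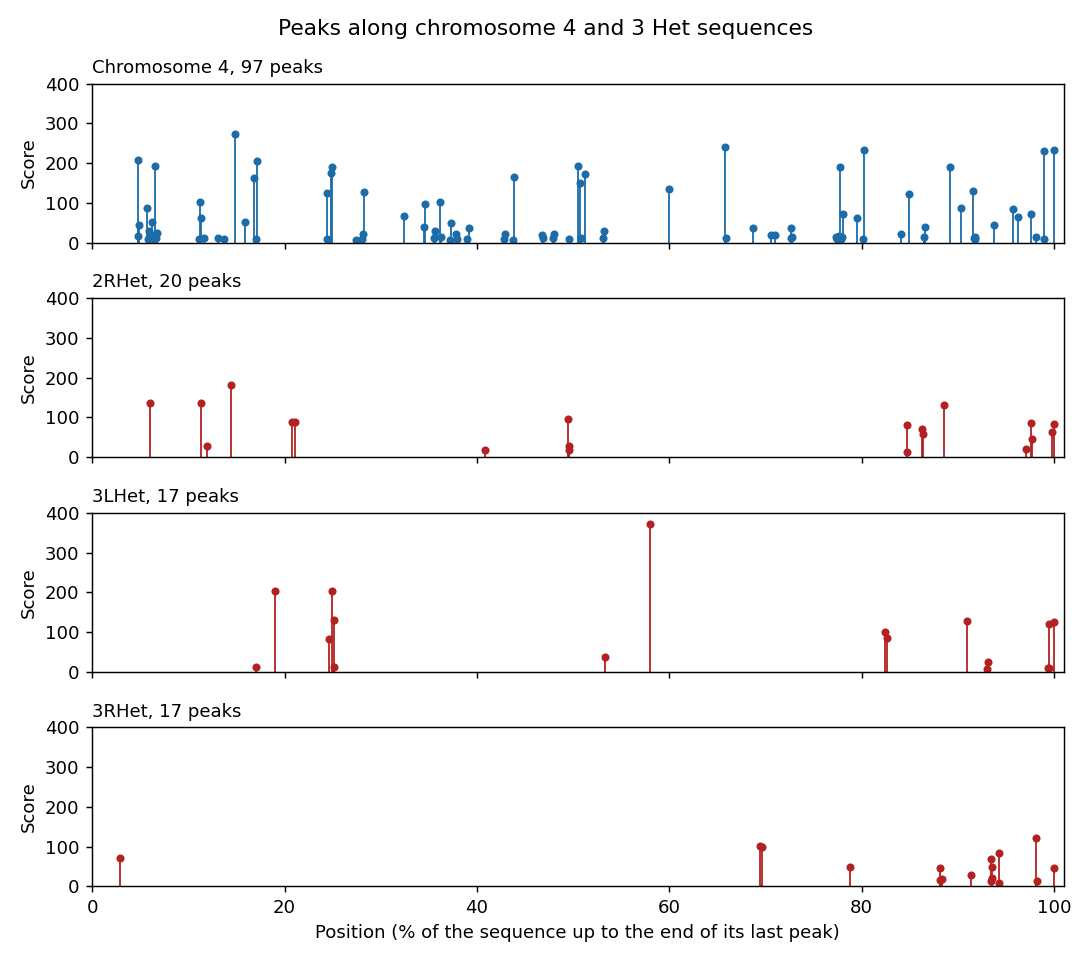
Score of each peak (vertical lines with points, linear axis from 0) against its position as a percentage of the sequence up to the end of its last peak, for chromosome 4 and the 3 Het sequences with 17 or more peaks. Chromosome 4 peaks occur along the whole span, whereas 14 of 17 peaks on 3RHet and 10 of 20 on 2RHet lie in the last of 4 equal parts. Any sequence beyond the last peak is left out, so parts of the full length may hold other shares.

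On unplaced sequence 1 group stood out. On U, 8 of the 27 peaks lay within 9760 bp, at 5289957-5299716, with scores of 18.11 to 44.29 and widths of 201 to 1075 bp. The remaining 19 U peaks had a median neighbour distance of 209 kb and a median score of 28.96, close to the 29.3 of the group. The longest empty stretches were 2264 kb on U, at 1178959-3442869, and 2968 kb on Uextra, at 16900399-19867965. In the order in which Uextra was joined from scaffolds, its 4 equal parts held 22, 15, 10 and 10 peaks. Positions and distances on U and Uextra need not hold in the genome.

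The scores of unplaced peaks also differed in kind. Most scores of the list fell on 1 discrete series, −log10 of the Poisson probability of exceeding a whole number of counts at a background mean of 66.9, to within 0.01. The share of scores on this series was 78.6% on the large arms, 85.6% on chromosome 4 (83 of 97, 77.0% to 91.9%) and 80.7% on the Het sequences (46 of 57, 68.1% to 90.0%). On unplaced sequence it was 46.4% (39 of 84, 35.5% to 57.6%). Both U (11 of 27, 40.7%) and Uextra (28 of 57, 49.1%) were low. In the group of 8 close U peaks 1 score was on the series, and in the rest of U 10 of 19 were. Of the 10 highest unplaced peaks, those at 6731824-6733026, 4022466-4023210, 8290293-8290889, 5630726-5631369 and 1833681-1834160 had scores off the series.

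For scores on the series, the whole number of counts divided by the background mean gives a fold over background. This assumes that the authors' score is such a probability, and the whole number is uncertain by 1. A fold was thus available for 46 of 57 Het peaks, 39 of 84 unplaced peaks and 83 of 97 chromosome 4 peaks. On the large arms it was available for 3617 of 4604, so the classes are compared on unlike parts of their peaks. Among peaks with a fold, the median was 3.24 on the Het sequences, 2.78 on unplaced sequence, 2.42 on chromosome 4 and 2.05 on the large arms. The highest among them was 9.42 for the Het sequences, on 3LHet at 1396259-1397202, and 7.87 for chromosome 4, at 199440-201914. It was 5.61 for unplaced sequence, on Uextra at 26549715-26550475, and 8.37 for the large arms. The unplaced scores of 194.72 and 181.99, both on U, were higher but off the series, so they have no fold. The part of a differing local background in the unplaced scores was not tested.

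**Figure D5:**
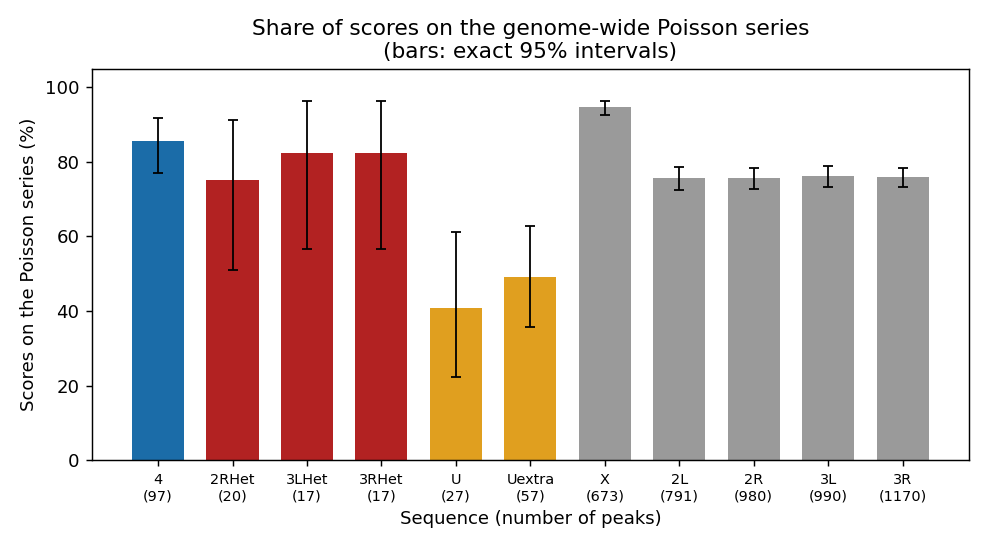
Percentage of scores that lie on the genome-wide Poisson series, for each sequence with 17 or more peaks (number of peaks in brackets); bars start at 0 and error bars are exact 95% intervals. U (40.7%) and Uextra (49.1%) are lower than chromosome 4 (85.6%), the Het sequences (75.0% to 82.4%) and the large arms (75.6% to 94.7%).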

How the data were processed

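The deposited list gives 4851 peaks by start and end, with 1 score each, in FlyBase release 5 per the file headers. Its source column names MACS. The submitters' processing notes name MACS2, BWA, CASAVA 1.7.0.2 and 1.7.0.3 and BDGP5, with no role or order. How the authors defined the deposited score, their threshold and whether replicates were pooled are not stated in the labels or the file, so a score describes and ranks peaks within this list.

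The members and measures were chosen with earlier results of these data known. Medians carry the exact binomial interval of their rank and shares the exact Clopper-Pearson interval, both at 95% and both for counting error only. Distances join neighbours on 1 sequence. Lengths are the end of the last peak, so density was given only for chromosome 4 and the large arms. The background mean of the Poisson series was sought from 20 to 200 in steps of 0.01, then 0.0005, as the value with most scores within 0.01. Peaks were named by rule: per class the 10 highest, 3 lowest and 3 widest, the ends of empty stretches, the closest pair, the largest groups and the highest of each sequence; other peaks in the text were named after their values were seen. Windows, like-score classes, weak peaks beside strong ones and the group on U were likewise chosen with the list in view. The gene table at hand is of release 6, so no gene was assigned to a peak. Functions were checked on simulated data. Python 3.11.15, numpy 2.4.6, scipy 1.17.1, pandas 2.3.3 and matplotlib 3.10.9 were used.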

Additional observations from a re-analysis of the deposited data

How the results depend on the processing

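Of 55 alternatives to 20 values, 38 stayed within the exact interval of the value and 17 moved, most of them by construction, since a threshold changes what is counted. With the peaks at or above the median score of the list, chromosome 4 had a median score of 65.5, a median width of 836 bp, a median distance of 13910.5 bp and 46.0 peaks per Mb, and its strong peaks alone numbered 32.6 per Mb. The large arms had 26.6, 653 bp and 19466.5 bp at this setting. The median width of the Het sequences, 570.5 bp, was then below that of the large arms. With peaks at most 500 bp apart joined, chromosome 4 had a median score of 48.69, a width of 968 bp and a distance of 12914 bp, and the Het width was 705 bp, against 16.02, 497.5 bp and 10833.5 bp on the large arms. The unplaced width, 420 bp, was then below that of the large arms. The share at or above the median score was 63.9% on chromosome 4, 87.7% on the Het sequences and 94.0% on unplaced sequence, against 49.0% on the large arms. Among the 500 highest were 33.0% of chromosome 4 and 28.6% of unplaced peaks, against 8.99%. At a tolerance of 0.005, 70.1% of chromosome 4 scores, 63.2% of Het scores and 67.5% of scores on the large arms were on the series. Without Uextra the unplaced median score was 28.96. Removing the group of 8 on U, an alternative chosen after seeing the data, gave 36.8. No paired analysis was possible because the 1 list carries no value per library, and for the same reason no replicate could be left out. The unknown depth limits how far weak peaks can be read.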
